A study of Rattus norvegicus with 9 samples.

Results

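Transcripts of 7 genes of glucocorticoid activation and response were followed in fibroblasts of the rat synovium, the membrane that lines the joint. The genes were Hsd11b1, Nr3c1, Fkbp5, Tsc22d3, Per1, Zbtb16 and Klf9. They were taken by symbol from the 17298 genes of the deposited expression table, and all 7 were present. The 9 libraries, labelled WT throughout, fell into 3 groups of 3. Control cells had normal culture without IL-1β, the second group had normal culture with IL-1β, an inflammatory cytokine, and the third (co-culture) was stimulated with IL-1β and then kept in the lower chamber of a transwell, under dermal fibroblasts in the upper chamber. The comparison of co-culture with IL-1β alone also holds any difference in insert, medium or time, which the labels do not give, and no library had co-culture without IL-1β. Strain, age, dose and any glucocorticoid in the medium are not stated either. Nor is it stated whether replicates were separate animals or cultures, so p-values cover only the spread among libraries, possibly technical.

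Glucocorticoids are steroid hormones that restrain inflammation, and a cell's response depends on its own enzymes as well as on the hormone in the blood. The enzyme 11β-hydroxysteroid dehydrogenase type 1 (Hsd11b1) turns inactive cortisone or 11-dehydrocorticosterone into the active hormone, using NADPH made inside the endoplasmic reticulum by H6pd, and is known to be induced by inflammatory cytokines in fibroblasts. The active steroid binds the glucocorticoid receptor (Nr3c1), which is held ready by heat shock proteins, moves to the nucleus and switches on target genes. Fkbp5, Tsc22d3, Per1, Zbtb16 and Klf9 are widely used as such targets.

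With IL-1β the 2 genes upstream in this pathway rose, while its targets went different ways. Hsd11b1 rose 1.99-fold and the receptor gene Nr3c1 1.63-fold, whereas Fkbp5 fell by 19.5% and Tsc22d3 by 17.7%. Klf9 rose 1.09-fold, a call that several alternatives ended, and was lower in co-culture than with IL-1β alone. In co-culture Nr3c1 and Fkbp5 lay near the control level, Hsd11b1 lay between control and IL-1β, and Tsc22d3 was as low as with IL-1β alone within its error. Per1 passed the test in no comparison, and Zbtb16 was close to 0 in every library. Levels are FPKM, a density of sequenced fragments scaled by transcript length and library size. Changes are log2 differences of FPKM + 1, given ± the standard error, and understate the change of genes at low FPKM. Adjusted p-values are from limma, two-sided, over the 11372 genes with a mean of at least 1 FPKM, and a gene passed at an adjusted p under 0.05.

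**Figure D1:**
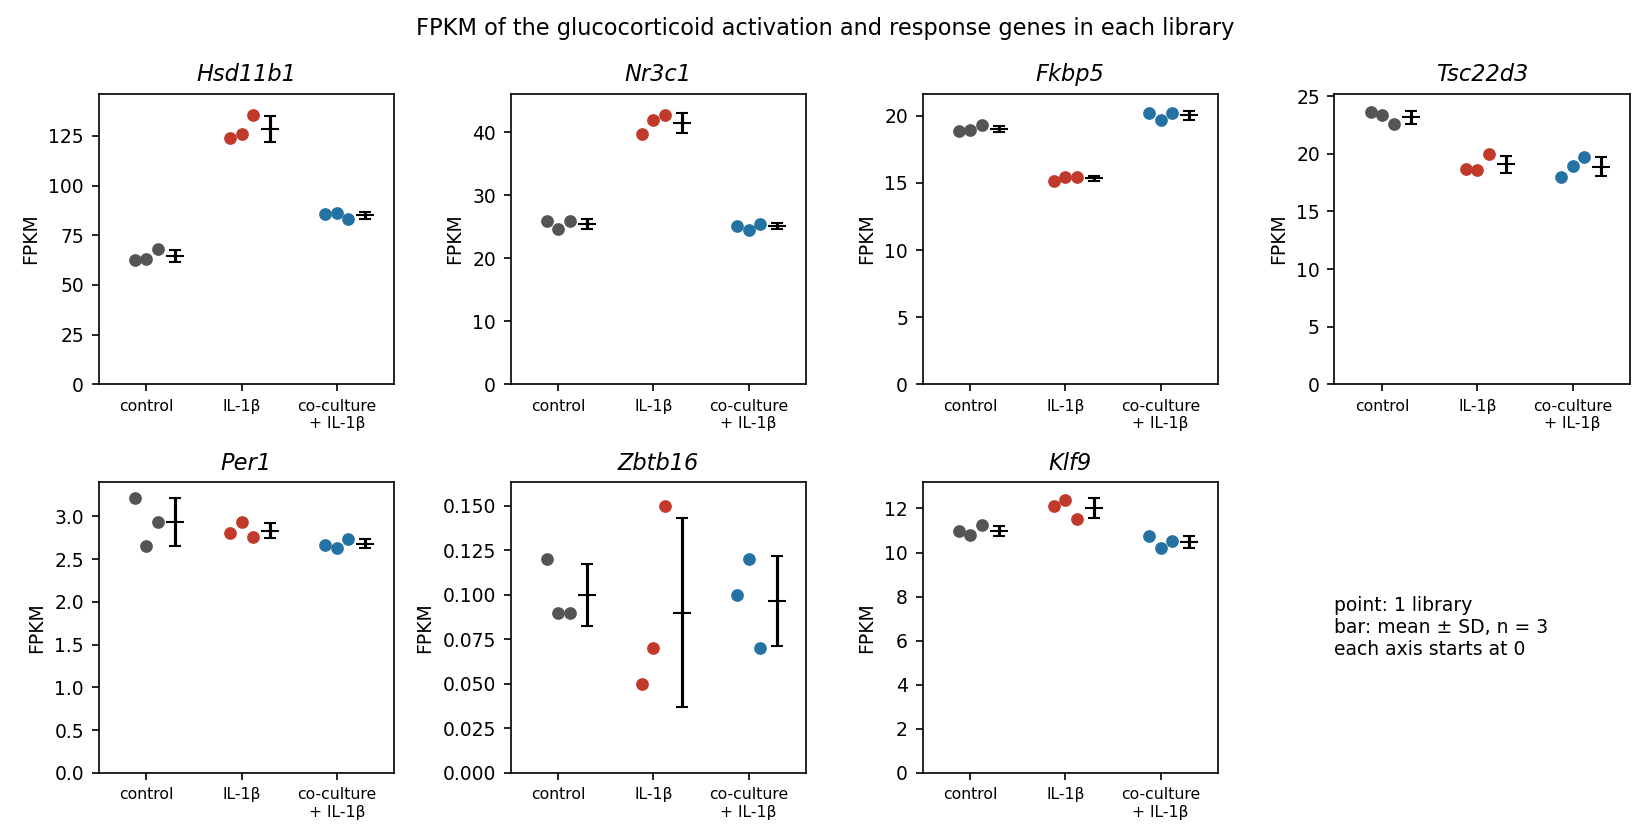
FPKM (vertical axes, each from 0) of the 7 genes in the 3 groups, with 1 point per library and the mean ± SD (n = 3) beside them. Hsd11b1 and Nr3c1 were highest in the IL-1β libraries, at 124 to 136 and 39.6 to 42.7 FPKM, where Fkbp5 was lowest, at 15.2 to 15.4 FPKM.

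The libraries of each group were alike. Rank correlations across genes were 0.9946 to 0.9959 within groups and 0.9584 to 0.9912 between them, and no library stood apart. The 10 listed fibroblast markers were all above the filter, with a summed level of 10830 to 12080 FPKM, and the 6 endothelial markers summed to 0.61 to 1.33 FPKM. With IL-1β 6 of the 10 fibroblast markers were higher and 4 lower (median 0.205), although their sum was lowest there. The 9 macrophage and leukocyte markers summed to 27.2 to 29.3 FPKM in control, 37.5 to 42.2 with IL-1β and 27.7 to 29.7 in co-culture, mostly from Cd14, Cd68 and Lyz2, and the pan-leukocyte gene Ptprc was at 0.04 to 0.13 FPKM in every library. With IL-1β Cd14 and Cd68 rose, whereas Lyz2, at 10.65 ± 0.90 FPKM in control, was lower at 7.99 ± 0.40 (limma adjusted p = 0.00131). In co-culture Lyz2 was at 7.76 ± 0.76 FPKM. Mrc1, Adgre1, Cd163 and Aif1, below the filter and not tested, were higher in every IL-1β library than in any control. Mrc1 was at 0.51 to 0.84 FPKM in control, 1.29 to 1.73 with IL-1β and 0.71 to 0.85 in co-culture. Csf1r overlapped between control and IL-1β, and Ptprc did not rise. The 8 adipocyte markers summed to 714 to 759, 495 to 538 and 543 to 567 FPKM in that order, and of the 6 tested 5 were lower and 1 higher with IL-1β. The 7 chondrocyte markers summed to 274 to 289.5, 42.5 to 44.8 and 131 to 132.5 FPKM, and the 5 mural cell markers found summed to 34.6 to 36.2, 13.6 to 16.3 and 31.1 to 32.8 FPKM. The 6 synovial lining markers summed to 726 to 744, 926 to 949.8 and 795 to 811 FPKM, but of the 5 tested 2 rose with IL-1β (Prg4 and Cd55) and 3 fell (median -0.17). Has1, among those that fell, passed the filter through its control libraries, so its fall was partly fixed by the filter. The 2 keratinocyte markers found summed to 1.1 to 2.17 FPKM over all libraries. None of the markers found was at 0 in all libraries. In such bulk RNA fewer cells of a type and less RNA per cell cannot be told apart.

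Hsd11b1 (gene ID 25116), the activating enzyme, was the most abundant of the 7 genes. Its level in the control libraries was 62.55, 62.82 and 68.31 FPKM. With IL-1β it was 123.94, 125.89 and 135.69 FPKM, and in co-culture 85.56, 86.28 and 83.09 FPKM. The 3 groups did not overlap: every IL-1β library lay above every co-culture library, and every co-culture library above every control. The rise with IL-1β, from 64.6 ± 3.25 to 128.5 ± 6.3 FPKM (SD, n = 3), came to 0.98 ± 0.04 on the log2 scale (limma adjusted p = 4.08e-09). Of the genes tested, 4.91% changed by more in either direction. The difference of co-culture from IL-1β alone was -33.87%, or -0.59 ± 0.04 on the log2 scale (limma adjusted p = 6.28e-07). It remained 1.32-fold above control (log2 fold change 0.39 ± 0.04, limma adjusted p = 7.31e-05), so that 39.9% of the IL-1β change on the log2 scale was left. The summed adipocyte markers were lower in both IL-1β groups than in control, while Hsd11b1 was higher in both. The macrophage markers Cd14, Cd68, Mrc1 and Cd163 were highest with IL-1β, where Lyz2 was below control. Their part in the Hsd11b1 levels was not tested.

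The receptor gene Nr3c1 (gene ID 24413) rose with IL-1β, and its co-culture level had no difference from control past the threshold. It stood at 25.9, 24.58 and 25.89 FPKM in control, at 39.62, 41.89 and 42.68 with IL-1β and at 25.17, 24.5 and 25.46 in co-culture. The IL-1β libraries were all above the other 6, and control and co-culture overlapped. The rise, from 25.5 ± 0.76 to 41.4 ± 1.59 FPKM, was 0.68 ± 0.04 on the log2 scale (limma adjusted p = 4.05e-08), and 8.95% of the genes tested changed by more. Co-culture differed from IL-1β alone by -0.70 ± 0.04 (limma adjusted p = 5.63e-08). Against control the difference was -0.02, with a 95% interval from -0.11 to 0.06 (limma adjusted p = 0.738). The macrophage markers Cd14, Cd68, Mrc1 and Cd163 were likewise highest with IL-1β. Lyz2 was below control in both other groups, and the summed chondrocyte and mural markers were lowest with IL-1β. Their part in the Nr3c1 levels was not tested.

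The sequences before the transcription start are shown for the 3 target genes that passed in at least 1 comparison, since Fkbp5 and Tsc22d3 fell with IL-1β where Klf9 did not. They are the 250 bases upstream from RefSeq (build GRCr8), 5′ to 3′, with capitals for the short cAMP response motif TGACG on either strand.
Fkbp5 (chr20:6543556-6543805, minus strand): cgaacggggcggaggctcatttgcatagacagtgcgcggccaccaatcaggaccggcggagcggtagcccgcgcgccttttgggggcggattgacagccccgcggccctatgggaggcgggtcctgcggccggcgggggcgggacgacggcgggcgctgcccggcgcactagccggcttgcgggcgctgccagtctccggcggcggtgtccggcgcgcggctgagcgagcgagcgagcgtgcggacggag
Tsc22d3 (chrX:109010035-109010284, minus strand): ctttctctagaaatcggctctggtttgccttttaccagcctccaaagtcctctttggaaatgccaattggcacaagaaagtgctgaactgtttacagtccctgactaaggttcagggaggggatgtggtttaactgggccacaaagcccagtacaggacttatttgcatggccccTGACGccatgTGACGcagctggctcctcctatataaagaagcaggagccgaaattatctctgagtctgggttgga
Klf9 (chr1:230126396-230126645, plus strand): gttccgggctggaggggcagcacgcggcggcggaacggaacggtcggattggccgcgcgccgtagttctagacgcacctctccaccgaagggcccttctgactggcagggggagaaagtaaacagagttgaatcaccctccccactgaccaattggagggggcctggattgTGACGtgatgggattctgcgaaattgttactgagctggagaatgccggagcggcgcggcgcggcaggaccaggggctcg
Promoters were found for 5 of the 7 members, with 3 starts for Tsc22d3 and 2 for Nr3c1, and FPKM per gene does not tell the starts apart. The start shown for Tsc22d3 is the one with matches, chosen for that. All motifs were searched on both strands. AGAACA, a single arm of the receptor's palindrome, was in 0 of these 8 windows, against 17.5% of all 33469 RefSeq rat promoter windows of that length. The full palindrome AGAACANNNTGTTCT, which contains that arm, was in 0.012% of all windows and in 0 of the 8. The motif TGACG was found in the third Tsc22d3 window, 75 and 65 bases before the start, and in the Klf9 window, 79 bases before it, against 18.2% of all windows. The full cAMP element TGACGTCA, which holds TGACG, the E-box CACGTG of clock factors and the C/EBP motif TTGCNNAA were in 0 of the 8, against 1.59%, 5.59% and 9.22% of all windows. A match or its absence describes these letters in this window only.

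Fkbp5 (gene ID 361810) encodes the co-chaperone FKBP51, which lowers the receptor's affinity for hormone and is itself induced by the receptor. Its levels were 18.91, 18.93 and 19.3 FPKM in control, 15.15, 15.45 and 15.41 with IL-1β, and 20.25, 19.68 and 20.23 in co-culture. All IL-1β libraries lay below the other 6, and all co-culture libraries lay above control by a small margin. With IL-1β the log2 fold change was -0.30 ± 0.03 (limma adjusted p = 2.31e-05), and in co-culture against IL-1β it was 0.37 ± 0.03 (limma adjusted p = 5.12e-06). The co-culture mean of 20.05 ± 0.32 FPKM against 19.05 ± 0.22 in control did not pass, at a difference of 0.07 with a 95% interval from -0.01 to 0.15 (limma adjusted p = 0.183). The summed chondrocyte, mural, adipocyte and fibroblast markers were also lowest with IL-1β, and their part in the Fkbp5 levels was not tested. Of the 10 fibroblast markers, however, 6 were higher and 4 lower with IL-1β.

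Tsc22d3 (gene ID 83514) encodes the leucine zipper protein GILZ, a mediator of the anti-inflammatory action of glucocorticoids. Control libraries were at 23.63, 23.38 and 22.55 FPKM, IL-1β libraries at 18.66, 18.64 and 19.95, and co-culture libraries at 18.02, 18.98 and 19.7. The control libraries were above all others, and the IL-1β and co-culture libraries were intermingled. The fall with IL-1β was -0.27 ± 0.04 on the log2 scale (limma adjusted p = 0.000347). Co-culture differed from control by -0.28 ± 0.04 (limma adjusted p = 0.000945), which 9.12% of the genes tested exceeded in size. From IL-1β alone it differed by -0.01, with a 95% interval from -0.11 to 0.08 (limma adjusted p = 0.824). The summed adipocyte, chondrocyte, mural and fibroblast markers were likewise higher in control than in both other groups, and their part in the Tsc22d3 levels was not tested. The single fibroblast markers were split, with 6 of 10 higher and 4 lower with IL-1β, and 3 higher and 4 lower in co-culture against control.

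The remaining targets moved little. Klf9 (gene ID 117560), a zinc finger transcription factor, was at 10.97, 10.78 and 11.23 FPKM in control, 12.11, 12.4 and 11.51 with IL-1β and 10.74, 10.19 and 10.53 in co-culture, with no overlap between the IL-1β libraries and the others. It rose with IL-1β by 0.12 ± 0.04 on the log2 scale (limma adjusted p = 0.0426) and in co-culture differed from IL-1β alone by -0.18 ± 0.04 (limma adjusted p = 0.00527). The first of these calls was fragile: it was lost when any control library, IL-1β replicate 1 or 2, or co-culture replicate 1 or 3 was left out, with adjusted p-values of 0.0524 to 0.135, whereas after median-of-ratios scaling and quantile normalization it still passed. Against control, co-culture did not pass (limma adjusted p = 0.357).

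Per1 (gene ID 287422), a repressor of the circadian clock that glucocorticoids and cAMP both induce, was at 3.21, 2.65 and 2.93 FPKM in control, 2.8, 2.93 and 2.76 with IL-1β and 2.67, 2.63 and 2.74 in co-culture. The log2 fold change with IL-1β was -0.03, with a 95% interval from -0.18 to 0.11 (limma adjusted p = 0.682). Every co-culture library was below every IL-1β library, but the difference of -0.06 did not pass (limma adjusted p = 0.497). Zbtb16 (gene ID 353227), which encodes the transcription factor PLZF, was at 0.12, 0.09 and 0.09 FPKM in control, 0.05, 0.07 and 0.15 with IL-1β and 0.1, 0.12 and 0.07 in co-culture. It was below the filter on low values and was not tested.

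Counted together, 3 of the 6 tested members were higher and 2 lower with IL-1β, where 20.5% of the genes tested were higher and 31.2% lower, or 51.7% either way. In co-culture against IL-1β, 1 member was higher and 3 lower, against 33.3% and 16.7% of the genes tested, or 50% either way. In co-culture against control, 1 was higher and 1 lower, against 12.4% and 7.91%, or 20.3% either way. These shares are close to the background or rest on 6 genes, and nothing particular to the members is read from them. The split of those calls depended on the scaling: 2330 genes were higher and 3544 lower with IL-1β, but 2961 and 2799 after median-of-ratios scaling. In co-culture against IL-1β the split was 3786 and 1901, or 2702 and 2655 after that scaling, and against control it was 1408 and 899, or 1008 and 1166 after quantile normalization. The counts of members were the same under both scalings. The first 2 comparisons share the IL-1β libraries, and each shares a group with the third.

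**Figure D2:**
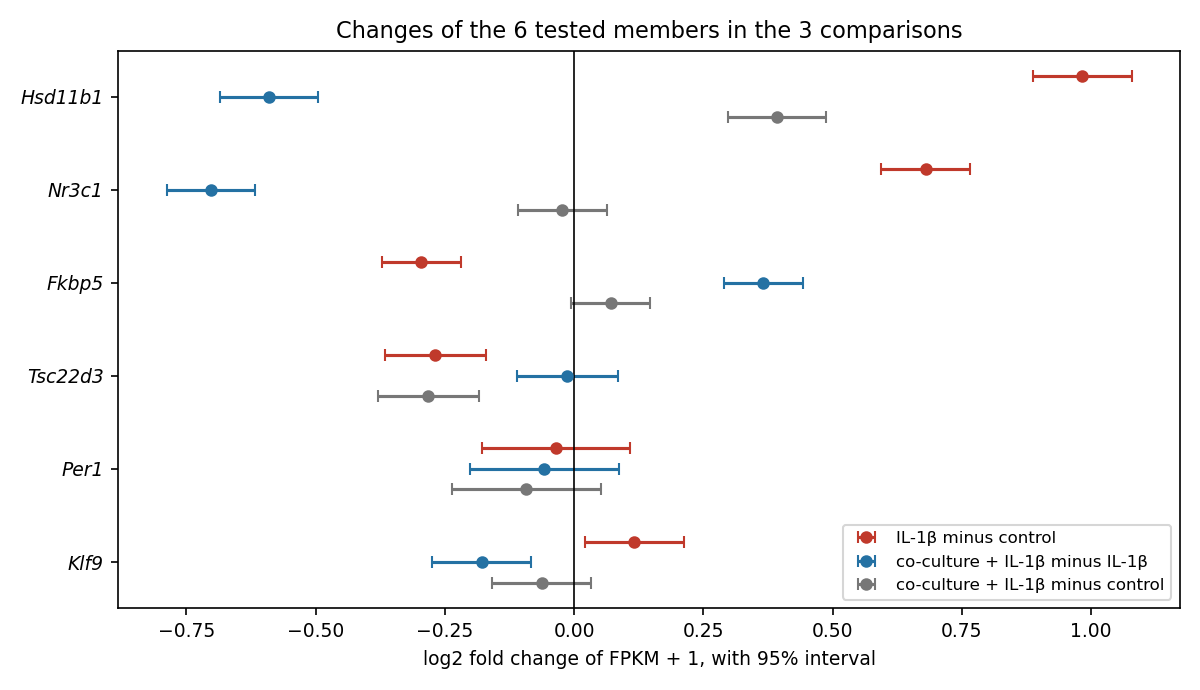
Log2 fold changes of FPKM + 1 (horizontal axis) of the 6 tested members in the 3 comparisons, with 95% intervals from limma. Hsd11b1 and Nr3c1 changed most, by 0.98 and 0.68 with IL-1β and by -0.59 and -0.70 in co-culture against IL-1β, and the Tsc22d3 interval for co-culture against IL-1β spans 0.

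Because FPKM is scaled by length, levels of different genes can be set against each other within a library, though unequal loss of reads between genes would shift such ratios (the build named in the submitters' notes is a mouse one). The ratio of Fkbp5 to Nr3c1 was 0.749 ± 0.02 (SD, n = 3) in control, 0.371 ± 0.011 with IL-1β and 0.801 ± 0.0054 in co-culture. The ratio of Tsc22d3 to Nr3c1 was 0.912 ± 0.04, 0.461 ± 0.014 and 0.755 ± 0.034. With IL-1β both targets were thus low relative to the receptor in all 3 libraries, with no overlap with the other groups. This restates the changes given above, the rise of Nr3c1 and the smaller falls of the 2 targets, and is no separate result. The ratio of Hsd11b1 to Nr3c1 was 2.54 ± 0.11 in control, 3.1 ± 0.089 with IL-1β and 3.4 ± 0.13 in co-culture, and the 3 groups did not overlap. Nr3c1 was near control in co-culture and Hsd11b1 was not. These ratios were not tested.

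**Figure D3:**
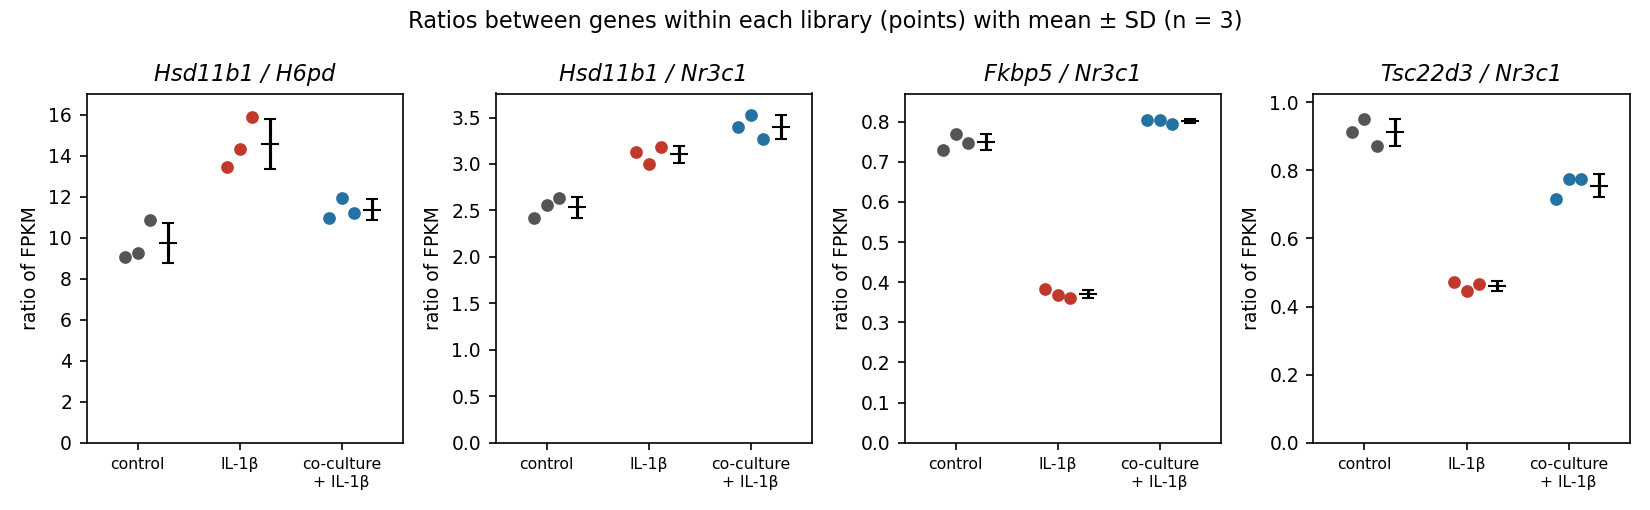
Ratios of FPKM between genes within each library (vertical axes, from 0), with points for libraries and the mean ± SD (n = 3). Fkbp5 and Tsc22d3 relative to Nr3c1 were lowest with IL-1β (0.371 and 0.461), and Hsd11b1 relative to Nr3c1 was highest in co-culture (3.4).

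The steroid supply around Hsd11b1 was then read from a list of 11 genes of glucocorticoid metabolism, export and binding, of which 6 were tested. With IL-1β 4 of them were higher and 2 lower, and the median change was 0.21 on the log2 scale. The median of all genes tested was -0.04 in that comparison, 0.06 in co-culture against IL-1β and 0.02 in co-culture against control. Of all genes tested 20.5% were higher and 31.2% lower with IL-1β, 33.3% and 16.7% in co-culture against IL-1β, and 12.4% and 7.91% against control. The counts of every list below stand beside these shares. In co-culture against IL-1β, 1 of the 6 was higher and 2 lower, and against control 1 was higher and 1 lower. H6pd, the source of NADPH for the enzyme, rose from 6.65 ± 0.33 to 8.84 ± 0.33 FPKM (log2 fold change 0.36, limma adjusted p = 0.00011) and was at 7.48 ± 0.30 FPKM in co-culture, lower than with IL-1β alone (limma adjusted p = 0.00503). The ratio of Hsd11b1 to H6pd was 9.74 ± 1.0 in control, 14.6 ± 1.2 with IL-1β and 11.4 ± 0.5 in co-culture. The inactivating enzyme gene Hsd11b2, named here after its values were seen, was at 0.04 to 0.25 FPKM over the 9 libraries and was not tested. Abcb1b, a drug and steroid export pump, rose from 11.96 ± 0.64 to 17.66 ± 0.83 FPKM (limma adjusted p = 2.64e-06). In co-culture it was at 14.85 ± 0.12 FPKM.

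The mineralocorticoid receptor gene Nr3c2, the nearest relative of Nr3c1, fell with IL-1β where Nr3c1 rose. Its product also binds glucocorticoids. It was at 2.58, 2.7 and 2.89 FPKM in control, 0.3, 0.31 and 0.43 with IL-1β and 1.65, 1.13 and 1.32 in co-culture, and the 3 groups did not overlap. The log2 fold changes were -1.47 with IL-1β (limma adjusted p = 8.17e-08), 0.81 in co-culture against IL-1β (limma adjusted p = 2.12e-05) and -0.66 in co-culture against control (limma adjusted p = 0.000389). Nr3c2 thus remained below control in co-culture, where Nr3c1 had no difference past the threshold. It passed the filter through its control libraries, though, and was below 1 FPKM in every IL-1β library. Its lower levels outside control were thus partly fixed by the filter, and Nr3c2 is also part of the metabolism counts above.

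How many of the receptor's chaperones were higher in co-culture than with IL-1β depended on the scaling. Of 14 such genes, all tested, 12 were higher and 0 lower, with a median of 0.16, but 7 were higher and 1 lower after median-of-ratios scaling. Of all genes tested, 33.3% were higher and 16.7% lower in that comparison, or 2702 and 2655 of 11372 after that scaling. Fkbp4, whose product FKBP52 aids the receptor and is the close relative of FKBP51, fell with IL-1β from 52.3 ± 1.24 to 45.0 ± 1.41 FPKM and stood at 60.7 ± 1.22 FPKM in co-culture (log2 fold change 0.42, limma adjusted p = 1.39e-06). Fkbp5 had the same order of groups. Hsp90ab1, an Hsp90 gene, went from 873 ± 11.1 to 735 ± 16.0 and 950.0 ± 9.67 FPKM in that order, or -0.25 on the log2 scale with IL-1β (limma adjusted p = 1.64e-05) and 0.37 in co-culture against IL-1β (limma adjusted p = 8.13e-07). With IL-1β 4 of the 14 were higher and 7 lower (median -0.09), or 5 and 4 after median-of-ratios scaling. In co-culture against control 8 were higher and 0 lower, or 5 and 0 after quantile normalization. Of 16 coactivator and corepressor genes, 1 was higher and 8 lower with IL-1β (median -0.13), or 3 and 6 after either other scaling. Of these 16, 6 were higher and 1 lower in co-culture against IL-1β, with quantile normalization giving 5 and 1 and median-of-ratios scaling 1 and 1. None of the 16 passed in co-culture against control, where 1 was lower after quantile normalization. Ppargc1a had the largest rise of the 16 with IL-1β (0.354) and the largest fall in co-culture against IL-1β (-0.46). It passed the filter only through its IL-1β libraries, so both directions were fixed by the filter, and it is among the genes counted. The coactivator gene Carm1 went from 42.8 ± 0.66 to 35.2 ± 1.56 FPKM with IL-1β (limma adjusted p = 0.000107) and was at 43.1 ± 1.51 FPKM in co-culture.

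Other genes known to be induced by glucocorticoids did not move as one. Of 29 listed, 21 were tested, and 11 were higher and 6 lower with IL-1β (median 0.16), against 5 higher and 13 lower in co-culture compared with IL-1β (median -0.21) and 9 higher and 2 lower compared with control (median 0.12). Angptl4, a lipoprotein lipase inhibitor gene, rose with IL-1β from 18.1 ± 1.41 to 137.7 ± 1.47 FPKM (log2 fold change 2.86, limma adjusted p = 3.87e-13) and was at 49.0 ± 0.39 FPKM in co-culture. The metallothionein gene Mt2A rose from 1746 ± 28.2 to 4162 ± 134 FPKM (log2 fold change 1.25, limma adjusted p = 5.66e-11), with 2740 ± 82.6 FPKM in co-culture. Fkbp5 and Tsc22d3, as given above, fell with IL-1β. Among genes of the same families as the members, 5 of 32 tested were higher and 14 lower with IL-1β. In co-culture 13 were higher and 7 lower against IL-1β (8 and 7 after median-of-ratios scaling), and 1 higher and 7 lower against control. Of all genes tested 20.5% were higher and 31.2% lower with IL-1β, and 33.3% and 16.7% in co-culture against IL-1β. Nothing particular to these families is read from the counts. Klf15, a transcription factor of the same family as Klf9, rose from 5.59 ± 0.30 to 11.4 ± 0.40 FPKM (log2 fold change 0.91, limma adjusted p = 3.56e-08) and was at 6.0 ± 0.21 FPKM in co-culture. Klf10, another factor of that family, fell with IL-1β from 14.85 ± 0.86 to 6.10 ± 0.40 FPKM (limma adjusted p = 1.09e-08) and was at 12.16 to 13.17 FPKM in co-culture.

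Glucocorticoid-induced genes that inflammatory signalling also induces formed a separate list of 7. Of its 6 tested genes all 6 were higher with IL-1β, with a median of 1.17, and 4 were lower and 0 higher in co-culture against IL-1β. Against control 4 were higher in co-culture and 0 lower. Of all genes tested 20.5% were higher with IL-1β, 16.7% lower in co-culture against IL-1β and 12.4% higher in co-culture against control. Dusp1, a phosphatase gene that ends MAP kinase signals, was at 37.4 ± 0.29, 69.7 ± 2.44 and 45.8 ± 1.97 FPKM in control, IL-1β and co-culture (limma adjusted p = 3.48e-09 with IL-1β). Irak3, a brake on IL-1 receptor signalling, went from 40.5 ± 0.53 to 112.9 ± 1.47 FPKM and stood at 55.6 ± 0.63 FPKM in co-culture. Cebpd was at 197.5 ± 1.72, 259.7 ± 18.5 and 259.1 ± 15.6 FPKM, and like Tsc22d3 it had no difference past the threshold between co-culture and IL-1β (limma adjusted p = 0.972).

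Factors known to act on the Hsd11b1 gene were listed too. Of 6 C/EBP and NF-kB genes 5 were higher and 1 lower with IL-1β (median 0.67), where 20.5% and 31.2% of all genes tested were. In co-culture against IL-1β 1 was higher and 4 lower, against 33.3% and 16.7% of all genes tested. Against control 2 were higher and 1 lower. Cebpb rose from 137.7 ± 4.27 to 226.9 ± 18.4 FPKM (log2 fold change 0.71, limma adjusted p = 2.41e-06) and was at 169.0 ± 11.4 FPKM in co-culture, above control (limma adjusted p = 0.00643). Nfkb1 went from 35.04 ± 0.61 to 87.4 ± 0.57 and 45.6 ± 0.17 FPKM. Both had the same order of groups as Hsd11b1, but so had Dusp1 and Irak3 above. The part of the listed factors in the Hsd11b1 levels was not tested. Cebpa fell, from 42.4 ± 1.69 to 20.5 ± 1.05 FPKM (limma adjusted p = 5.84e-09), with 31.5 ± 1.19 FPKM in co-culture. Cebpa is also on the adipocyte marker list.

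**Figure D4:**
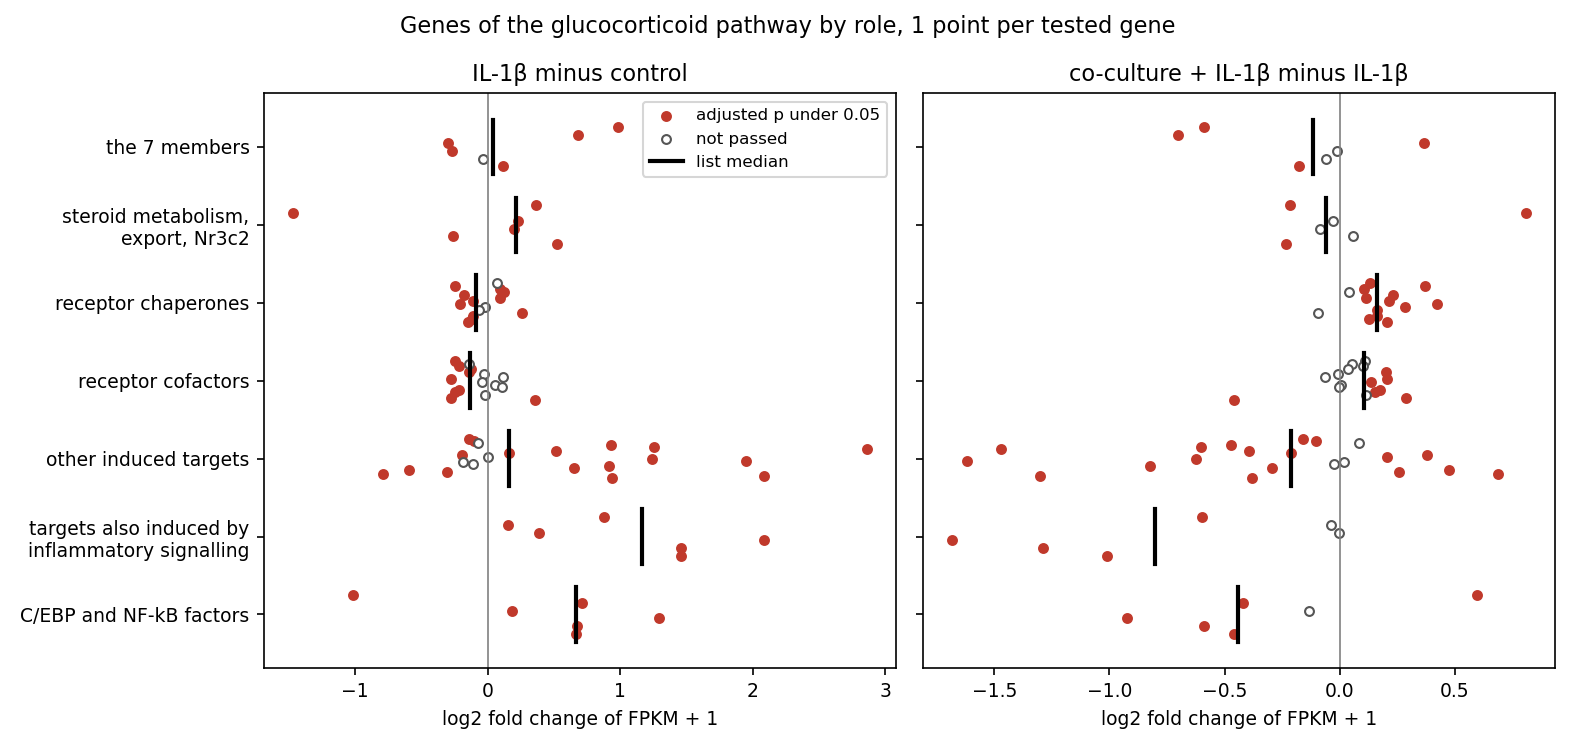
Log2 fold changes of FPKM + 1 (horizontal axes) of each tested gene of the members and 6 pathway lists, with IL-1β against control on the left and co-culture against IL-1β on the right. Filled points passed an adjusted p of 0.05, and bars are list medians, for example 0.67 and -0.44 for the C/EBP and NF-kB factors.

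Among inflammatory genes that glucocorticoids are known to lower, 12 of 13 tested were higher and 1 lower with IL-1β (median 4.18). In co-culture against IL-1β 12 were lower and 1 higher (median -3.32), with 8 higher and 2 lower against control. Csf2, Nos2, Il1a and Il1b were at 0 to 0.11 FPKM in control and passed the filter on the mean only through the IL-1β libraries. Their rise with IL-1β and lower level in co-culture were thus fixed by the filter, and they help set these counts and medians. Per1 was also set beside the clock. Of 16 tested clock genes other than Per1, 4 were higher and 8 lower with IL-1β, 7 higher and 5 lower in co-culture against IL-1β, and 1 higher and 3 lower against control. After either other scaling the counts were 4 and 7, 5 and 5, and 0 and 4 in that order, and of all genes tested 33.3% were higher and 16.7% lower in co-culture against IL-1β. With IL-1β the repressor gene Bhlhe41 went from 5.44 ± 0.22 to 1.48 ± 0.15 FPKM (limma adjusted p = 1.56e-08). The activator gene Npas2 went from 3.60 ± 0.04 to 7.43 ± 0.09 FPKM (limma adjusted p = 6.87e-08). In co-culture Bhlhe41 was at 3.28 to 3.91 FPKM and Npas2 at 3.18 to 3.59 FPKM. Of 9 cAMP-responsive genes 6 were higher and 1 lower with IL-1β, where 20.5% and 31.2% of all genes tested were. In co-culture 2 of the 9 were higher and 6 lower against IL-1β, with 5 higher and 0 lower against control. One that rose with IL-1β was Nr4a1, a nuclear receptor gene, from 10.6 ± 0.57 to 31.3 ± 0.51 FPKM (limma adjusted p = 9.5e-10). It was at 12.46 to 14.5 FPKM in co-culture.

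Genes with the most similar course were sought for the 2 members whose group means spanned at least 0.5 on the log2 scale. Likeness was the root mean square difference of log2(FPKM + 1) over the 9 libraries after centring each gene. For Hsd11b1 the nearest genes were Dcbld2, at 0.0413, Ripk2, at 0.046, and Csgalnact1, at 0.0538. Ripk2, a kinase gene of NOD receptor signalling, was at 12.2, 25.3 and 16.1 FPKM in control, IL-1β and co-culture. For Nr3c1 they were Vopp1, at 0.0405, Casp8, at 0.0453, and Herc1, at 0.0481, with the caspase gene Casp8 at 4.74, 8.31 and 4.95 FPKM. In all, 58 genes lay within 0.1 of Hsd11b1 and 95 within 0.1 of Nr3c1.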

How the data were processed

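Polyadenylated RNA was sequenced in 9 libraries, 3 per group by their titles. The authors deposited FPKM values with 2 decimals for 17298 genes, per the file headers. The aligner is not given in the sources used here, nor is the quantifier. GRCm38, a mouse build, is named per the submitters' processing notes, while 93.4% of the gene identifiers, with all 7 members, are in the rat RefSeq table (GRCr8), so loss of reads may differ between genes and no gene coordinates from the files are given. FPKM sums were 679774 to 741810 per library. The sequencing depth is unknown, because only FPKM values were used here.

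Values were taken as log2(FPKM + 1), kept at a mean of at least 1 FPKM (11372 genes), and compared by group means in limma (version 3.58.1, under R 4.3.3) with trended, robust moderation. Because that mean was over all groups, a gene could pass the filter through its IL-1β libraries only, as Tgm2 and Ppargc1a did among the listed targets and cofactors. Others passed through their control libraries, as Nr3c2 and Has1 did. P-values were adjusted by Benjamini-Hochberg over all genes kept. The code of the fit was also run on simulated data with independent noise, which does not test the calls of these members. Members and the 18 gene lists, 8 of them cell type markers, were chosen with earlier results of these data known. Some genes are on 2 lists, such as Nr3c2 and Fkbp4. Named list genes were those with the 3 smallest p in a comparison or the 2 highest levels, and patterns were compared for members spanning 0.5 on the log2 scale. Alternatives covered the pseudocount, the filter, scaling, the replicate block, moderation, the libraries fitted and leaving out each library.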

Additional observations from a re-analysis of the deposited data

How the results depend on the processing

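Of 303 refits of the 6 members' changes over 17 alternatives, 294 kept the side of the threshold, and where a call passed it also kept its direction. The other 9 were all the rise of Klf9 with IL-1β, which was lost when 7 of the 9 libraries were left out in turn, in a fit of the libraries of that comparison only (adjusted p = 0.0631) and with the replicate block (adjusted p = 0.0605). It ranged from 0.09 to 0.16 on the log2 scale. Hsd11b1 ranged from 0.94 to 1.03 with IL-1β and from -0.66 to -0.55 in co-culture against IL-1β, and Nr3c1 from 0.66 to 0.73 and from -0.77 to -0.68. Fkbp5 ranged from -0.31 to -0.25 and from 0.30 to 0.38. Without a filter Zbtb16 could be fitted and did not pass in any comparison (adjusted p = 0.814, 0.889 and 0.984). With a minimum mean of 5 FPKM Per1 was not tested. The labels do not say that replicate numbers pair libraries. Of the 9 same-number correlations of deviations 1 was above 0.1 (-0.046 to 0.189), and those between other numbers were -0.221 to 0.133. In all, 6 of 9 libraries were best correlated with their own number, so whether numbers pair libraries is not settled. With the replicate block 2 members were higher and 2 lower with IL-1β, where Klf9 was the call that was lost, 1 and 3 in co-culture against IL-1β, and 1 and 1 against control. With 3 libraries per group and unknown depth, small changes such as those of Per1 may go undetected.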
